A study of Homo sapiens with 6 samples.

Results

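Clusters of IGF2BP3 reads that lay on annotated pseudogenes were examined in 5 libraries of HCT116 cells, a human colorectal carcinoma line. IGF2BP3 is a cytoplasmic RNA-binding protein that binds many mRNAs through its KH and RRM domains. A cluster belonged to the set when at least 1 nt of it overlapped, on the same strand, an exon of a GENCODE release 44 gene whose type contains the word pseudogene, and when it touched no exon of a protein-coding or mitochondrial gene. Of 244620 clusters in the 5 IGF2BP3 libraries, 7938 met this rule (3.25%), and they lay on 1717 of the 15233 annotated pseudogenes. All coordinates are those of GRCh38, and all 244645 cluster sequences of the series were identical to that genome at the positions given in the files.

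All cells carried the genotype Tet-OsTIR1-PURO and received 100 µM 4-thiouridine (4sU) for 15 h before irradiation at 365 nm. The 5 libraries used an IGF2BP3 antibody and differed in the nuclease, given here as in-lysate/on-beads concentration in U/µL: RNase I at 0.05/0.05, 0.1/0.025 and 0.05/0.025, and RNase T1 at 1/1 and 0.25/0.25. The sixth library used an IgG antibody with RNase I at 0.1/0.025. The IGF2BP3 antibody also recognises IGF2BP2 in part, so the clusters cannot be assigned to IGF2BP3 alone. Electroelution was used for RNase I 0.05/0.05 and RNase T1 1/1, and crushed gel pieces for the other 3 libraries, so gel extraction cannot be told apart from the RNase T1 concentration or from the on-beads concentration of RNase I. Each condition was 1 library, so there were no replicates within a condition, and the spread given below is that between the 5 conditions.

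Cluster reads numbered 2362467, 803490, 670712, 1157194 and 182448 in the order of libraries given above. The IgG library held 25 clusters of 324 reads in all. None of these lay on a pseudogene, which allows a share of up to 12% with a count of 0, so this control was too shallow to set a background for the pseudogene clusters.

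A processed pseudogene is a copy of a spliced mRNA that was reverse transcribed and inserted into the genome, so it lacks the introns of its parent gene. An unprocessed pseudogene arose by duplication of a gene and usually keeps its intron positions, and a unitary pseudogene is a gene that lost its function without leaving a working copy. Genes with abundant mRNA, such as those of ribosomal proteins, have many processed pseudogenes. In PAR-CLIP, a 4sU base crosslinked to the protein is read as C, and this T-to-C conversion marks the site. A read is placed by its sequence, and a pseudogene and its parent mRNA can share that sequence exactly. Bowtie, the aligner named in the submitters' processing notes, aligns a read without splitting it over an intron.

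The sequences below show the 3 ways in which a cluster compared with its parent, that is, the gene named by the symbol's stem or, where the symbol gave none, the protein-coding or mitochondrial gene with the best sequence match. They are genomic sequences 5′ to 3′ on the strand of the pseudogene, at most 30 nt of each cluster. The first 2 clusters were identical to the coding sequence of the parent mRNA and occurred at 2 places in the genome, and are written in lower case throughout.
DBF4P1 (chr10:64169385-64169414, minus strand): accttcattcaatatttactcatgattctg
RPL23P8 (chr7:20827478-20827505, plus strand): acttcccgctgctggtgtgggtgacatg
DBF4 is the regulatory subunit of the kinase that fires replication origins. In the RNase T1 0.25/0.25 library the DBF4P1 cluster held 21 reads, and clusters of DBF4 at the same place of its mRNA held 21 reads as well. RPL23P8 derives from RPL23, a protein of the large ribosomal subunit, and had 16 reads there against 18 at the parent.

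The next 2 stretches came from clusters that were identical to the parent mRNA and whose whole sequence occurred once in the genome. Both stretches ran across an exon junction of the parent, and they were not searched in the genome by themselves. The capitals mark the part that the parent encodes in its downstream exon.
BZW1P2 (chr3:116645914-116645943, minus strand): aaaatgctgaagaagAATCTGAATCTGAAG
ENSG00000218426 (chr6:153282576-153282605, minus strand): caacttcgacaaataCCACCCAGGCTACTT
BZW1, a regulator of translation initiation, is the parent of the first, and the ribosomal protein gene RPL27A that of the second. The BZW1P2 stretch lay in a cluster of 310 nt with 605 reads in the RNase I 0.1/0.025 library. The cluster on the RPL27A copy was 202 nt long with 107 reads in the RNase I 0.05/0.025 library.

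The last 4 clusters differed from the parent mRNA at 1 base, which is in capitals, with the parent sequence beside each. Changes are written as the parent base, the position counted from 1 at the 5′ end of the stretch, and the pseudogene base.
POM121B (chr7:73297064-73297093, plus strand): ctgcatcttcagcaTctcccatgttcaagc
POM121 at this place: ctgcatcttcagcaCctcccatgttcaagc
TPT1P4 (chr6:144200678-144200707, minus strand): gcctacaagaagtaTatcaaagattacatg
TPT1 at this place: gcctacaagaagtaCatcaaagattacatg
MTCO1P12 (chr1:631792-631821, plus strand): accctgaagtttatattctCatcctaccag
MT-CO1 at this place: accctgaagtttatattctTatcctaccag
MTND4P12 (chr5:134927119-134927148, minus strand): gtagtaacagccatCctcatccaaaccccc
MT-ND4 at this place: gtagtaacagccatTctcatccaaaccccc
The POM121B and TPT1P4 stretches carried C15T. Their clusters gave 52 conversion events in 89 reads (RNase I 0.05/0.025) and 40 in 81 reads (RNase I 0.1/0.025). The MTCO1P12 stretch carried T20C, with 15 events in the 54 reads of its cluster, and MTND4P12 carried T15C, with 10 events in 31 reads, both in RNase T1 0.25/0.25. Clusters with no difference had 0.599, 0.632 and 0.524 events per read in these libraries, in the order named. Each example, C-to-T or T-to-C, lay below the value of its library. POM121 is a nuclear pore protein, TPT1 the translationally controlled tumour protein, and MT-CO1 and MT-ND4 are subunits of respiratory chain complexes encoded in mitochondrial DNA.

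Most of the clusters, but not all, lay on pseudogenes annotated as processed. The types are those of the annotation, and how each locus arose was not examined. Processed types accounted for 7025 of the 7938 clusters (88.5%), on 1562 of their 10660 annotated genes. Unprocessed pseudogenes held 538 clusters, transcribed unprocessed 252, transcribed unitary 118 and rRNA pseudogenes 5. Pseudogenes named as nuclear copies of mitochondrial genes held 445 clusters but 10.1% of all reads on pseudogenes. A further 339 clusters also overlapped an exon of another gene type, and 88 lay opposite a protein-coding exon.

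The share of clusters on pseudogenes was higher in the RNase I than in the RNase T1 libraries. It was 3.93% in RNase I 0.05/0.05 (3579 of 90999 clusters, 95% Wilson interval 3.81 to 4.06), 3.35% in RNase I 0.1/0.025 (1453 of 43385, 3.18 to 3.52) and 4.10% in RNase I 0.05/0.025 (1507 of 36795, 3.90 to 4.30). In RNase T1 1/1 it was 1.80% (1075 of 59873, 1.69 to 1.90), and in RNase T1 0.25/0.25 it was 2.39% (324 of 13568, 2.14 to 2.66). The intervals of the 3 RNase I libraries did not overlap those of the 2 RNase T1 libraries, and they cover counting error only. The difference between nucleases was not tested over libraries. Median cluster length moved with it, at 43 to 45 nt in RNase I and 31 to 35 nt in RNase T1 libraries, and its part in the shares was not tested.

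**Figure D1:**
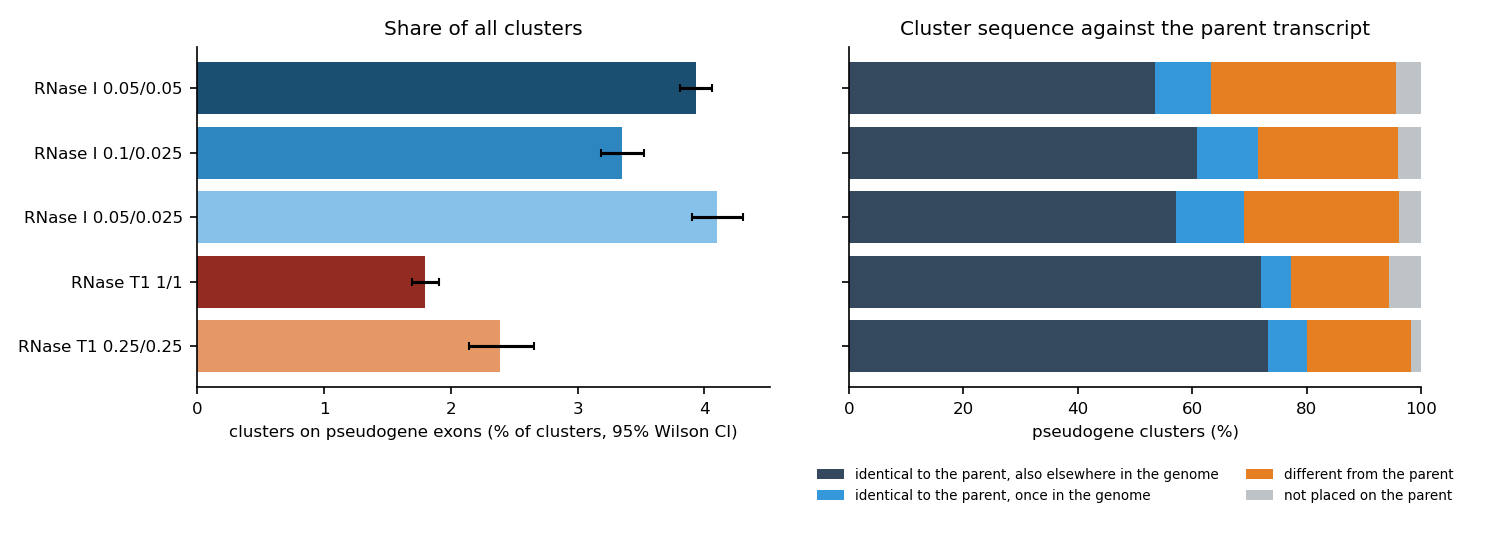
Left, clusters on pseudogene exons as a percentage of all clusters in each IGF2BP3 library, with 95% Wilson intervals; right, the same clusters divided by their sequence against the parent transcript, as a percentage of pseudogene clusters. The RNase I bars lie between 3.35% and 4.10% and the RNase T1 bars at 1.80% and 2.39%, and the largest class in each library is the one identical to the parent and present elsewhere in the genome.

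Most clusters had the sequence of the parent mRNA. Of 7592 clusters that could be placed on the parent's canonical transcript with differences at no more than 0.15 of their length, 5429 (71.5%) were identical to it, 1319 had 1 difference, 551 had 2 and 293 had 3 or more. For comparison, 17.1% of 26275 placed 50-nt pieces of the same pseudogenes' exons were identical to the parent. The pieces were longer than the median cluster of each library (31 to 45 nt), and a longer stretch is less often identical. The 2 shares were not matched for length. The 5429 identical clusters fell into 2 classes. In the first, with 4667 clusters, the sequence also occurred elsewhere in the genome. In the second, with 762 clusters, it occurred once, and 676 of these (88.7%) crossed an exon junction of the parent with at least 5 nt on either side. This follows largely from how the class was defined, since a stretch of the parent mRNA within 1 exon would also occur at the parent gene. Of the clusters in the first class, 397 (8.51%) crossed a junction. The 50-nt pieces crossed one in 23.5% of cases, again without matching for length.

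Repeated sequence was more frequent in pseudogene clusters than in those on protein-coding exons in each library. Most of these pseudogenes are copies of another gene, so the direction follows largely from how the set was chosen, and the test below adds little. The cluster sequence occurred more than once in the genome for 58.1% to 75.7% of pseudogene clusters per library and for 3.20% to 7.57% of protein-coding clusters. The difference was 61.9 ± 6.85 percentage points (SD, n = 5 libraries), with the higher value on pseudogenes in 5 of 5 libraries (exact sign-flip permutation test, two-sided p = 0.0625, adjusted p = 0.0781 over the 5 comparisons of this kind that were chosen after the values were seen). With 5 libraries 0.0625 is the smallest p this test can give, so it cannot reach 0.05. Among pseudogene clusters 2952 sequences occurred once, 3736 at 2 places and 1250 at 3 places. No cluster sequence of the series occurred at more than 3 places. How reads with several equal alignments were assigned is not given in the sources used here.

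Where clusters of 1 library had the same sequence and at least 1 of them was on a pseudogene, their read counts were usually equal. There were 1139 such sequences, and in 889 (78.1%) every copy had the same number of reads. The share ranged from 72.8% in RNase T1 0.25/0.25 to 82.4% in RNase T1 1/1, and the largest ratio between copies in any library was 2.2. Such sequences included 39.8% of pseudogene clusters in RNase T1 1/1 and 11.5% in RNase I 0.05/0.05. A parent cluster overlapped the same place of the mRNA in the same library for 6742 of the 7592 placed clusters (88.8%), with a range of 85.7% to 90.0% over libraries. For these clusters, reads of the pseudogene and of its parent cannot be told apart by sequence where the 2 are identical.

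Differences between pseudogene and parent were less frequent inside clusters than around them. For 5872 clusters with 30 nt of annotated exon on either side, 0.912% of positions inside the cluster differed from the parent and 5.65% in the flanks. Over the libraries the inside value ranged from 0.514% to 1.06% and that of the flanks from 4.74% to 6.08%. The difference was -4.55 ± 0.42 percentage points (SD, n = 5), with the lower value inside in 5 of 5 libraries (exact sign-flip permutation test, two-sided p = 0.0625, adjusted p = 0.0781). Over all libraries together, the share of differing positions was highest next to the cluster. It was 10.2% at the nt just outside the 5′ end and 11.4% just outside the 3′ end, against 3.66% and 5.14% at 30 nt away. On the inner side it was 7.25% at the first nt and 1.06% at the last. The value just outside the 3′ end was 11.7% to 13.1% in the RNase I libraries, but 4.56% in RNase T1 1/1 and 5.91% in RNase T1 0.25/0.25, where it lay near the 4.75% and 4.74% of the whole flanks. Just outside the 5′ end it was 9.67% to 11.4% in the RNase I libraries, and 7.15% and 9.45% in RNase T1 1/1 and 0.25/0.25.

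**Figure D2:**
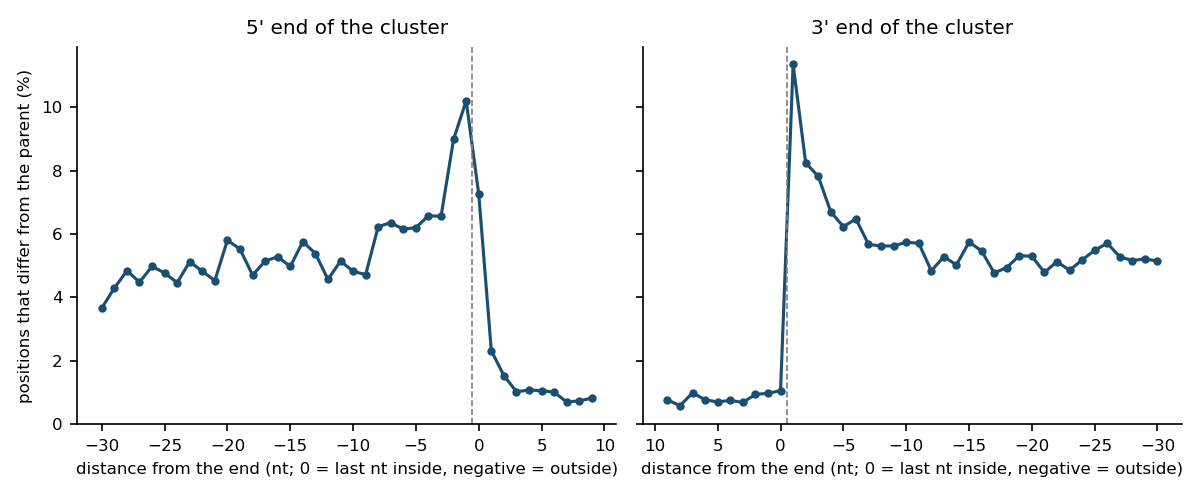
Percentage of positions that differ from the parent transcript, by distance in nt from the 5′ end (left) and the 3′ end (right) of 5872 pseudogene clusters of all 5 libraries; 0 is the outermost nt inside the cluster, negative values lie outside, and the dashed line marks the cluster end. The curve is highest at the nt just outside either end, at 10.2% and 11.4%, and inside the clusters, at the 5′ end it drops from 7.25% at the first nt to near 1%, and lies near 1% from the last nt inwards at the 3′ end. RNase I libraries hold most of these clusters, and the 3′ peak was not seen in the RNase T1 libraries.

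Differences inside clusters were of unequal kinds. Among 2365 substitutions, 833 were C in the parent and T in the pseudogene, 350 G and A, 443 T and C, and 216 A and G. C-to-T differences were thus 2.38 times as frequent as G-to-A, their complement on the other strand, and T-to-C 2.05 times as frequent as A-to-G. In the 50-nt pieces of the same pseudogenes these ratios were 0.973 and 1.04. The C-to-T to G-to-A ratio was 2.56 in RNase I 0.05/0.05, 2.94 in RNase I 0.1/0.025 and 2.72 in RNase I 0.05/0.025. It was 1.06 in RNase T1 1/1 and 1.08 in RNase T1 0.25/0.25, from 52 and 14 C-to-T differences. The 2 kinds of nuclease did not overlap in this ratio. They did overlap in the T-to-C to A-to-G ratio. It was 1.98, 1.89 and 2.56 in the RNase I libraries, in the same order, and 1.81 and 2.50 in RNase T1 1/1 and 0.25/0.25. The difference between nucleases was not tested for either ratio.

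Conversion events per read differed with the kind of difference. A read that carries C at a genomic T is counted as a conversion event whatever its origin, and a read cannot show an event where the genome has C. Clusters with no difference had 0.604 events per read (4267 clusters, 67086 reads). That is fewer than the 5429 identical clusters given above, so the comparison did not cover all clusters. Clusters whose sole difference was C in the parent and T in the pseudogene had 0.759 (304 clusters, 7109 reads), and 112 of these (36.8%) reached at least 0.9 events per read, against 8.20% without a difference. Clusters whose sole difference was T in the parent and C in the pseudogene had 0.456 (180 clusters, 5111 reads). With G in the parent and A in the pseudogene the value was 0.619 and with A and G it was 0.648.

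Within libraries, C-to-T clusters exceeded those without a difference by 0.145 ± 0.0518 events per read (SD, n = 5), in 5 of 5 libraries (exact sign-flip permutation test, two-sided p = 0.0625, adjusted p = 0.0781). T-to-C clusters were lower in 5 of 5 libraries, with a mean difference of -0.189 ± 0.104 (exact permutation p = 0.0625, adjusted p = 0.0781). For G-to-A the difference was 0.00671 ± 0.0964, higher in 3 libraries and lower in 2 (exact p = 0.938). The RNase T1 0.25/0.25 value rested on 6 C-to-T and 3 T-to-C clusters. Whether the reads of these clusters came from the parent mRNA was not tested.

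**Figure D3:**
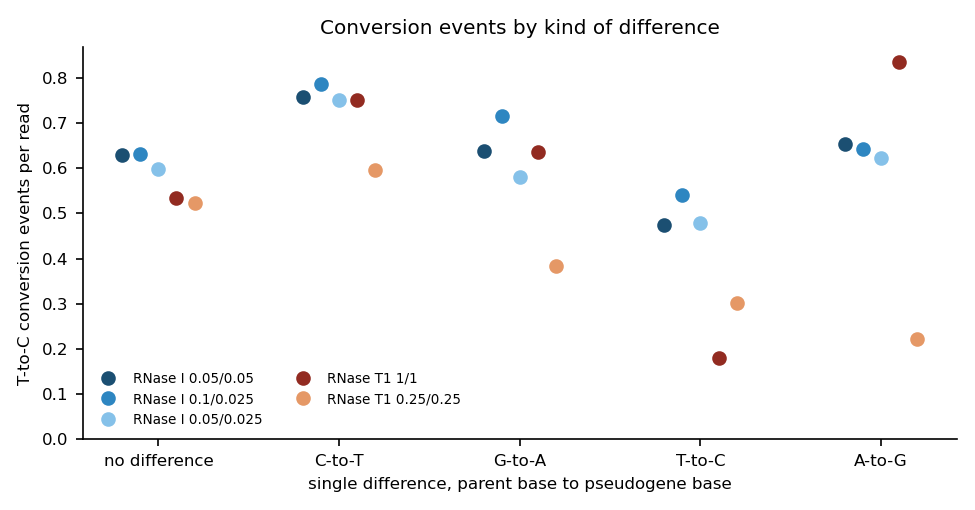
T-to-C conversion events per read of pseudogene clusters with no difference from the parent or with exactly 1 difference of the kind given (parent base to pseudogene base); each point is 1 IGF2BP3 library. C-to-T points lie above those without a difference and T-to-C points below them in each library, while G-to-A points lie on both sides.

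By parent gene, the clusters belonged to 839 families, 520 of them with 1 pseudogene. CPM below are reads in pseudogene clusters scaled to all cluster reads of the library (counts per 1000000). The 12 families of highest mean CPM held 34.8% of the summed mean CPM. Copies of PABPC1, the cytoplasmic poly(A)-binding protein, came first. Their 7 pseudogenes had 3550 CPM in RNase I 0.05/0.05, 5734 in RNase I 0.1/0.025, 6168 in RNase I 0.05/0.025, 1084 in RNase T1 1/1 and 6002 in RNase T1 0.25/0.25. The RNase T1 1/1 library was the lowest, and the RNase T1 0.25/0.25 library lay among the RNase I libraries. Clusters on the PABPC1 gene itself had a mean of 6488 CPM.

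Mitochondrial parents held 5 of the 12 places, namely MT-CO1 (mean 1108 CPM), MT-ND4 (496), MT-ND2 (428), MT-ATP6 (407) and MT-CO3 (314), which encode subunits of respiratory chain complexes or of the ATP synthase. In each of these 5 families RNase T1 0.25/0.25 had the highest value, for example 1546 CPM for MT-CO1 and 778 CPM for MT-ND4. POM121 had 1 pseudogene with 1021 CPM on average and 654 to 1326 over the libraries. RPLP0, the stalk protein of the large ribosomal subunit, had 557 CPM (430 to 783). RPL10 had 478 CPM (102 to 786) and RPL23 370 CPM (107 to 568), both proteins of the large subunit. The 17 pseudogenes of EEF1A1, the elongation factor that brings aminoacyl-tRNA to the ribosome, had 351 CPM (123 to 452). The 7 of TUBA1B, an alpha-tubulin, had 314 CPM (26.8 to 669). RNase T1 1/1 was the lowest library for RPL10, RPL23, EEF1A1 and TUBA1B, while RNase T1 0.25/0.25 was the highest for POM121.

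**Figure D4:**
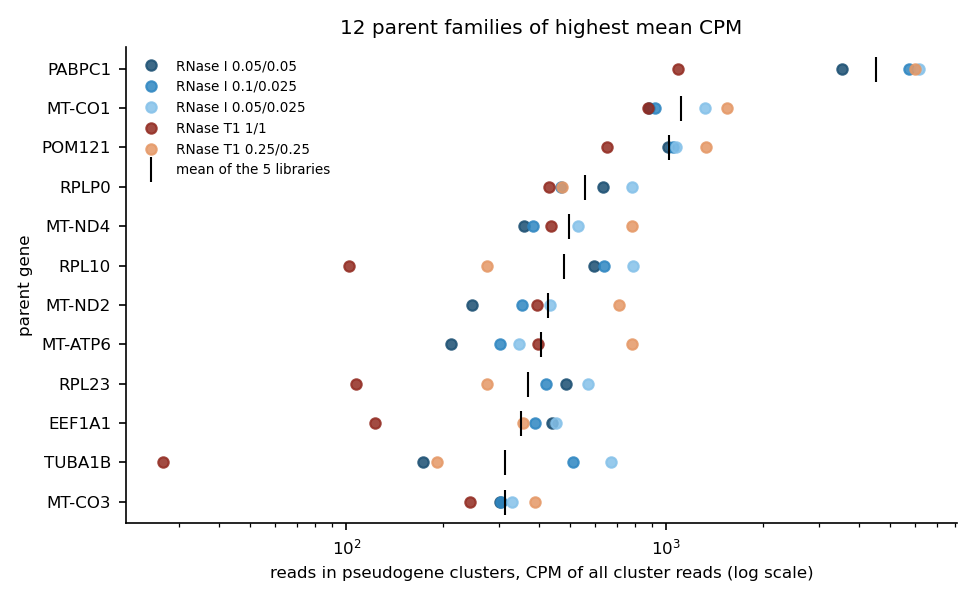
Reads in pseudogene clusters of the 12 parent families of highest mean CPM, in CPM of all cluster reads on a log scale; each point is 1 IGF2BP3 library and the black bar is the mean of 5. The PABPC1 family leads with a mean of 4507 CPM, and the mitochondrial families have their highest point in RNase T1 0.25/0.25.

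Families with many annotated pseudogenes, of which only examples are given, differed in CPM. RPL23A had 91 pseudogenes named after it, of which 7 held a cluster, with a mean of 27.2 CPM. PPIA, the peptidyl-prolyl isomerase cyclophilin A, had 89, of which 5 held a cluster (45.7 CPM). For GAPDH, a glycolytic enzyme, 19 of 65 held a cluster (186 CPM), and for EEF1A1 17 of 49 (351 CPM). Other families with 50 to 80 pseudogenes named after them had means from 5.45 CPM (KRT8) to 139 CPM (RPL7).

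Single pseudogenes of high CPM were led by PABPC1P4 (chr12:63822021-63823895, plus strand). It had 1699 CPM in RNase I 0.05/0.05, 2799 in RNase I 0.1/0.025, 2900 in RNase I 0.05/0.025, 506 in RNase T1 1/1 and 3026 in RNase T1 0.25/0.25. Of its 77 clusters, 37 were identical to the PABPC1 transcript and 46 had a sequence found once in the genome. PABPC1P1 (mean 884 CPM), PABPC1P2 (296 CPM) and the unnamed copy ENSG00000250568 (730 CPM) were further PABPC1 copies among the first 10, and ENSG00000250568 lay on the minus strand next to PABPC1P1 on chromosome 4.

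POM121B (chr7:73293497-73301161, plus strand), an unprocessed pseudogene, came second. It had 1009, 1047 and 1071 CPM in the RNase I libraries at 0.05/0.05, 0.1/0.025 and 0.05/0.025, and 654 and 1326 CPM in RNase T1 1/1 and 0.25/0.25. Of 79 clusters placed on POM121, 56 were identical to it and 10 of its 81 clusters had a sequence found once. MTCO1P12 (890 CPM), MTND2P28 (428), MTATP6P1 (400) and MTCO3P12 (290) were the other unprocessed pseudogenes of highest mean, and lay near each other on chromosome 1 between 629640 and 634922. MTND4P12 (397 CPM), RPLP0P6 (348 CPM) and BZW1P2 (287 CPM) were annotated as processed. BZW1P2 had 513, 804 and 95.4 CPM in the RNase I libraries, in the same order, 25.1 CPM in RNase T1 1/1 and no cluster in RNase T1 0.25/0.25. Of the 804 CPM in RNase I 0.1/0.025, 753 came from 1 cluster (chr3:116645635-116645944). Most of that cluster lay outside the annotated pseudogene (chr3:116645902-116646727).

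Grouped by the function of the parent, ribosomal protein copies were the largest list in reads summed over the libraries and in each RNase I library. They comprised 442 pseudogenes of 75 parents with 1763 clusters and 24.7% of the reads, led by RPLP0 and RPL10. Their share of pseudogene reads was 22.4% to 28.1% in the RNase I libraries and 14.0% and 15.4% in the RNase T1 libraries. Of the clusters on the list, 45.6% crossed a parent exon junction. Nuclear copies of mitochondrial genes, led by MT-CO1 and MT-ND4, had 8.44% to 10.4% of the reads in RNase I and 18.6% and 21.3% in RNase T1 libraries, and none of their 463 clusters crossed a junction. Human mitochondrial genes have no introns. In these lists the nucleases did not overlap, in opposite directions, and this was not tested.

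RNA-binding proteins (20 parents, 45 pseudogenes, 318 clusters) held 14.1% of the reads, led by PABPC1 and PCBP2. PABPC1 copies alone held 19480 of the 22476 reads of this list and PCBP2 copies 1584, so the list mainly reflects the PABPC1 family. The share of the list ranged from 8.05% in RNase T1 1/1 to 25.0% in RNase T1 0.25/0.25, where it was the largest list. In RNase T1 1/1 the mitochondrial copies exceeded the ribosomal protein copies. Translation factors, led by EEF1A1 and EEF1G, had 450 clusters and 4.83% of the reads. Chaperones, led by HSP90AA1 and HSP90AB1, had 418 clusters and 4.45%. Ferritins, which store iron, had 97 clusters and 1.58%, with FTL and FTH1 as parents. Respiratory chain and carrier genes of the nucleus, led by COX6A1 and ATP5MC2, had 159 clusters and 1.47%. Cytoskeletal parents (TUBA1B and ACTB) had 1.42%, chromatin proteins (HMGA1 and H2AZ1) 1.43%, glycolytic enzymes (GAPDH and TPI1) 1.06%, YWHA signalling adaptors and small GTPases (RHEB and ARF3) 0.873%, and ubiquitin and proteasome genes (UBE2D3 and UBE2S) 0.733%. ARF3 was the best sequence match of LINC02210, but no cluster of LINC02210 could be placed on it. LINC02210 gave 32 of the 105 clusters and 338 of the 1390 reads of the list with YWHA proteins and small GTPases. Parents on no list held 32.8% of the reads in 3689 clusters.

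Placed on the parent mRNA by their midpoint, 6696 clusters lay in the coding sequence (88.2%), 762 in the 3′UTR (10.0%) and 126 in the 5′UTR (1.66%). The annotated exons of the same pseudogenes gave 95.9%, 3.78% and 0.343% in 50-nt pieces. The 3′UTR share was 8.95% in RNase I 0.05/0.05 and between 10.4% and 11.3% in the other 4 libraries. Since the annotation of these pseudogenes covers little beyond the coding sequence of the parent, these shares do not measure where the parent mRNA was bound.

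A set of 346 clusters on 86 pseudogenes could not be placed on a parent, and 240 of them (69.4%) had a sequence found once in the genome. Genes with 10 or more such clusters, named here after their values were seen, included LINC02210 with 32 clusters, CENPBD2P, DUXAP10 and OR51B3P with 18 each, CUTALP with 14, ZNF252P with 14, C19orf48P with 13 and DUXAP9 with 11. None of the unplaced clusters of DUXAP10 and DUXAP9 had a sequence found once, while those of LINC02210 all did. LINC02210, CUTALP and C19orf48P are annotated as transcribed unitary pseudogenes. LINC02210 had 206 conversion events in 338 reads, and its clusters were found in 5 of 5 libraries. Its level was 80.0 CPM in RNase I 0.05/0.05, 34.8 in RNase I 0.1/0.025, 25.3 in RNase I 0.05/0.025, 82.1 in RNase T1 1/1 and 49.3 in RNase T1 0.25/0.25.

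Differences from the parent in the interior, at least 5 nt from either end, were sought only in the 5872 clusters with 30 nt of annotated exon on either side. Among them, 908 clusters on 415 pseudogenes had such a difference and a sequence found once in the genome. Of the 908, 582 (64.1%) crossed a parent exon junction. The other 326 lay on 178 pseudogenes, and 275 of them (84.4%) had a parent cluster at the same place in the same library.

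Conversion rates of pseudogene and protein-coding clusters were compared within each library. Events per read on pseudogenes were 0.642, 0.649 and 0.618 in the RNase I libraries (0.05/0.05, 0.1/0.025, 0.05/0.025) and 0.539 and 0.540 in RNase T1 1/1 and 0.25/0.25. On protein-coding exons they were 0.638, 0.651, 0.608, 0.512 and 0.552 in the same order. The mean difference was 0.00546 ± 0.0148 (SD, n = 5), positive in 3 libraries (exact sign-flip permutation test, two-sided p = 0.562, adjusted p = 0.562 over 4 comparisons). With pseudogene clusters found once in the genome it was 0.0343, with processed types alone 0.0207 and against lncRNA exons 0.0126 (exact p = 0.0625 for each), so its size depended on the clusters compared.

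In each library the median pseudogene cluster was shorter than the median protein-coding cluster. Its median length was 43, 44 and 45 nt in the RNase I libraries and 31 and 35 nt in the RNase T1 libraries, against 57, 55, 55, 34 and 38 nt on protein-coding exons. The difference was -8.2 ± 4.97 nt (SD, n = 5) and negative in 5 of 5 libraries (exact permutation p = 0.0625, adjusted p = 0.125). When the pseudogene clusters alone were limited to those whose sequence occurred once in the genome, the difference was -3.6 nt (exact permutation p = 0.25).

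**Figure D5:**
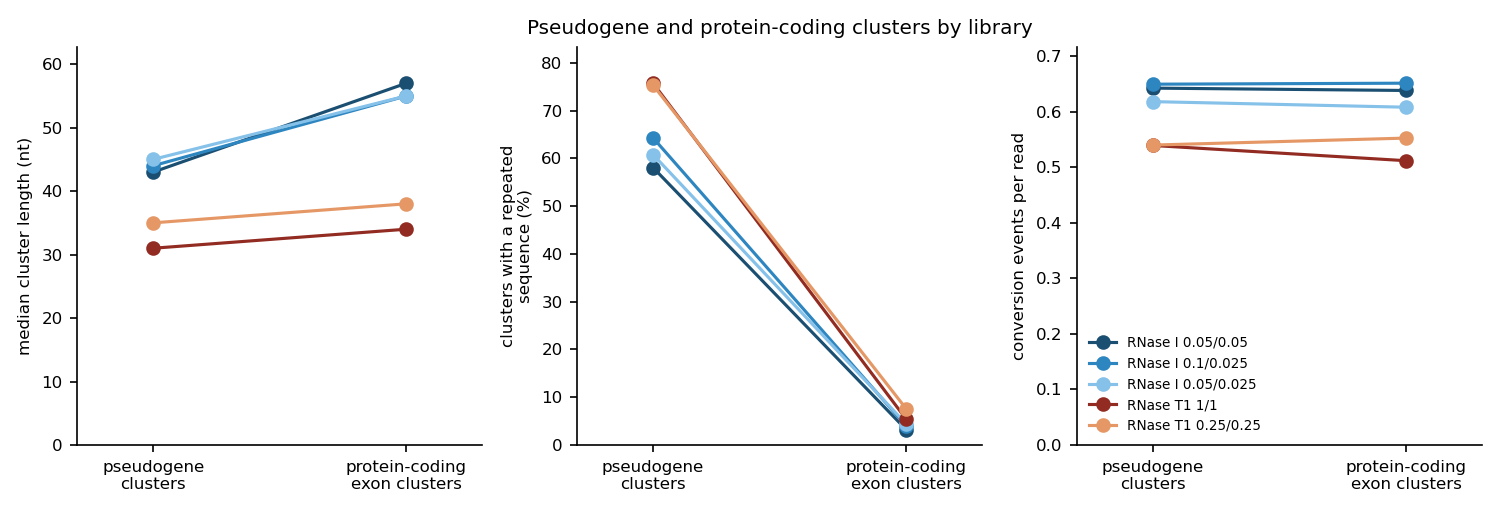
Median cluster length (left), percentage of clusters whose sequence occurs more than once in the genome (middle) and conversion events per read (right) for pseudogene clusters and protein-coding exon clusters; each line is 1 IGF2BP3 library. Length is lower and the repeated share higher on pseudogenes in each library, while events per read differ in both directions, with a mean difference of 0.00546.

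Recurrence between libraries was compared in the same way. On pseudogenes 53.9%, 93.2%, 92.8%, 77.2% and 97.8% of clusters overlapped a cluster of another IGF2BP3 library by at least 1 nt, in the order of libraries used above, against 59.2%, 94.6%, 95.7%, 79.6% and 99.4% on protein-coding exons. The difference was -2.71 ± 1.53 percentage points (SD, n = 5), negative in 5 of 5 libraries (exact p = 0.0625, adjusted p = 0.125). When the overlap had to cover 50% of both clusters, it turned to 14.3 percentage points in favour of pseudogenes, and against coding-sequence clusters it was 1.31, so the direction depended on these choices. Merged over the libraries, the clusters formed 3967 sites, of which 2127 were seen in 1 library and 169 in all 5. At the level of genes, 155 of 1717 pseudogenes had a cluster in all 5 libraries and 670 in 1.

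Target criteria of more than 10 CPM and more than 0.5 conversion events per read were applied to each cluster, with the thresholds of the study's methods. CPM here were scaled to cluster reads. The scale of the study's CPM is not given in its methods, so genes that met the criteria here need not be its targets. In RNase I 0.05/0.05, 614 of 3579 pseudogene clusters met both criteria (17.2%), against 17.6% of all clusters of that library. In RNase I 0.1/0.025 it was 39.0%, against 39.1% of all clusters. In RNase I 0.05/0.025 it was 50.9% against 45.7%, in RNase T1 1/1 25.0% against 21.3%, and in RNase T1 0.25/0.25 59.3% against 59.3%. The criterion of 10 CPM stood for 23.6 reads in the deepest library and 1.82 in the shallowest, where each cluster passed it. The difference from protein-coding clusters was 1.01 ± 2.69 percentage points (SD, n = 5), positive in 2 libraries (exact p = 0.5, adjusted p = 0.562). It was 3.26 at more than 0.75 events per read (exact p = 0.0625) and 5.26 against coding-sequence clusters (exact p = 0.125).

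By gene, 373 of 1547 pseudogenes with a cluster in RNase I 0.05/0.05 had one that met both criteria (24.1%), against 45% of all genes with a cluster on an exon. The shares were 45.7% against 63.3% in RNase I 0.1/0.025, 58.6% against 70.1% in RNase I 0.05/0.025, 31.5% against 49.3% in RNase T1 1/1 and 68.1% against 80.3% in RNase T1 0.25/0.25. Pseudogenes lay below all genes in each library, and all genes include genes with many clusters. In all, 667 of the 1717 pseudogenes met the criteria in at least 1 library and 54 in all 5. The 54 included PABPC1P4, POM121B, MTCO1P12, RPLP0P6, EEF1A1P5 and HSP90AA2P. The matching counts over all genes are not given here, so these numbers cannot be set against a background.

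Motifs were counted as further features of the sequence. CAUU, searched on the RNA strand, occurred 5.97 to 8.67 times per kb of pseudogene cluster over the 5 libraries, 5.80 to 8.51 times per kb in coding-sequence clusters and 7.53 to 11.5 times per kb on protein-coding exons as a whole. CAGU occurred 2.62 to 5.68 times per kb of pseudogene cluster, 3.74 to 7.78 times in coding sequence and 3.38 to 6.67 times on protein-coding exons, with pseudogene clusters lowest of the 3 in each library. RNase T1 cuts after G, and 93.6% and 89.8% of pseudogene clusters ended in G in RNase T1 1/1 and 0.25/0.25, against 13.8% to 14.4% in RNase I libraries. These are descriptions, and no difference in motifs was tested.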

How the data were processed

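IR-PAR-CLIP, which crosslinks 4sU-labelled RNA to a protein and reads T-to-C conversions, was deposited as cluster tables of 5 IGF2BP3 libraries and 1 IgG library, 1 per condition. Per the labels and methods, the authors used bcl2fastq 2.20.0.422, UMI-tools 1.1.1, Trimmomatic 0.30, Bowtie 0.12.7 and PARalyzer; the deposited values are counts of reads, conversion events and non-conversion events per cluster. ModeScore was not used. How reads with several alignments were handled is not given in the sources used here.

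Clusters were overlapped with GENCODE 44 exons by strand (bedtools 2.31.1). Each cluster sequence was searched exactly on both strands of GRCh38. Parents came from the symbol stem (5649 clusters) or blastn 2.17.0 (2287 clusters), with 2 clusters having none. For 98.6% of clusters with a stem, that gene was also the best sequence match. Placement used edlib 1.3.9.post1 on the canonical transcript. In a test on simulated data with known differences, 200 of 200 windows were placed where they were made and the parent was the top match in 199. CPM are counts per 1000000 cluster reads. Libraries were the paired units of exact sign-flip permutation tests with Benjamini-Hochberg adjustment, and groups came from the sample labels. Intervals and limits cover counting error only.

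Named were the 12 parent families and 10 pseudogenes of highest mean CPM, those in most libraries, the 5 non-processed pseudogenes of highest mean CPM, pseudogenes with an IgG cluster, and the leading parents of each list. Members and lists were chosen with earlier results of these data known. Results for a few items that these rules or the text would name are not reported here.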

Additional observations from a re-analysis of the deposited data

How the results depend on the processing

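Of 59 alternatives, 5 reversed the direction and 10 moved a count or share; the other 44 kept the direction, but differences changed in size. The difference in the share of clusters overlapping another library was 14.3 percentage points with 50% reciprocal overlap, and 1.31 against coding-sequence clusters, a comparison chosen after seeing the data. The difference in events per read was 0.0343 with pseudogene clusters found once in the genome, 0.0207 with processed types and 0.0126 against lncRNA exons. It was 0.0263 with pseudogene clusters that differ from the parent (chosen after seeing the data) and -0.00501 against coding-sequence clusters. When each library was left out it was -2.18e-05 to 0.00997, with the lowest value without RNase T1 1/1. The difference in the share meeting the target criteria was -0.0765 percentage points with at least 20 reads in place of 10 CPM, 3.26 at more than 0.75 events per read and 5.26 against coding-sequence clusters. Left out in turn, libraries gave -9.5 to -6.75 nt for length, -3.03 to -2.08 percentage points for overlap and 0.0908 to 1.62 for the target criteria, and with 4 libraries the smallest p is 0.125. Pseudogene clusters were 3.33% of clusters of at least 5 reads and 3.08% of reads. Identity to the parent was 88.9% with up to 1 difference and 28.1% among clusters found once in the genome, the latter chosen after seeing the data. The 3′UTR held 11.9% of reads, and a parent cluster in any library was found for 93.6%. Counting a pseudogene once per library, 1542 met the target criteria, 647 at more than 0.75 events per read and 876 with at least 20 reads. Such counts over all genes are not given here. Ribosomal protein copies held 22.2% of clusters and 29.2% of reads in clusters found once. The cause of these changes was not tested.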
